A study of Mus musculus with 15 samples.

Results

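Genes of hyaluronan synthesis, binding and turnover, 7 of the 18194 with a probe set of a single gene symbol, were followed in the first branchial arch of the mouse embryo. They were the synthases Has2 and Has3, the heavy chain gene Itih5, the proteoglycan gene Vcan, the link protein gene Hapln1, the receptor gene Cd44 and the hyaluronidase gene Hyal2. The set was chosen by the measured signals of Has2 and Itih5, which were higher in both kinds of mutant arch than in the wild type. The values of Has2 and Itih5 are therefore given as a description with no test, and the mutant comparisons of the other members likewise. The members had 23 probe sets, of which 19 passed the filter on dim signals, and 6 of the 7 genes had at least 1 that passed. The probe set of Has3 did not pass.

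Hyaluronan is a long unsulfated sugar chain that synthases in the plasma membrane extrude into the space between cells, where it swells with water. In the embryo it fills the loose matrix through which neural crest and other mesenchymal cells move. Versican binds it through its globular end, link proteins clamp that bond, and the heavy chains of the inter-alpha-trypsin inhibitor family can be joined to it. Cd44 is a cell surface receptor for it and the hyaluronidases cut it. Has2 is the main synthase of the midgestation embryo.

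The arrays held RNA of the first arch at embryonic stage E10.5, when the arch has a maxillary branch (future upper jaw) and a mandibular branch (future lower jaw). By their titles, 15 arrays fell into 5 groups of 3. These were the wild-type mandibular branch (WT_MNA), the mandibular branch of Dlx5/6 mutants (5_6_MNA), the wild-type maxillary branch as WT_MXA (set 1 here) and as WT_MXA2 (set 2 here), and a maxillary branch labelled KO (KO_MXA). The labels did not name the gene lost in the KO group, did not say what set apart the wild-type maxillary groups, and gave no strain, sex or stage beyond E10.5. Their shared description was a plan that foresaw mutants of dlx2, dlx1/2 and Dlx5/6 and pools of arches, and no label said that the arrays of a group came from separate litters or pools. The adjusted p-values below thus measure the spread between these arrays, which may be technical.

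The labels were checked against the Dlx genes. Dlx5 lay at 727 ± 40.6 (mean deposited signal ± SD, n = 3) in the wild-type mandibular group and at 10.9 ± 2.97 in the Dlx5/6 mutant group, while Dlx2 lay at 421.7 ± 20.1 in wild-type maxillary set 2 and at 3.37 ± 0.180 in the KO group. Dlx1 and Dlx5 were lower in the KO group too. Dlx1 lay at 208.9 ± 11.7 there and at 711.5 ± 30.8 in set 2, and Dlx5 at 33.5 ± 5.98 and 116.9 ± 24.6. Arch mesenchyme markers were present in every group, with 8 of 8 genes past the filter. Their summed signal was 6582 to 7197 in the wild-type mandibular, 7879 to 8359 in the Dlx5/6 mutant and 8044 to 8533 in the set 1 arrays. In set 2 it was 7934 to 8286 and in the KO arrays 6991 to 7298. It was thus higher in the Dlx5/6 mutants and lower in the KO arrays than in the wild type they were compared with. The list includes Dlx2, so the low Dlx2 signal is itself part of the lower KO sum. A bacterial spike-in control, dap, gave 423 to 506.9 on 9 arrays (mandibular groups and set 1) and 3612 to 3774 on the other 6 (KO and set 2). The KO group was therefore compared with set 2 and the mandibular groups with set 1, and a comparison that crosses these array sets cannot be told apart from a difference between them. Arrays of 1 group correlated at 0.984 to 0.990.

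Promoters are shown because Dlx proteins are homeodomain factors, whose core binding motif is read as TAATTA. RefSeq promoters (build GRCm38.p6, 250 bases before to 50 after the annotated start) could be matched for 5 of the 7 members, Itih5, Vcan, Cd44, Hapln1 and Hyal2. Searched on both strands, TAATTA was in 5.29% of 32851 promoters, TAATTG in 8% and the GC box GGGCGG in 35.7%, where TAATTA is its own reverse complement and TAATTG, but not the GC box, can share bases with it. Among the matched members TAATTA was found only in Hapln1, 5 bases before the start, and TAATTG in none. The GC box was found in Itih5, Vcan, Cd44 and Hyal2. Itih5 had 3 matches, at -124, -10 and 6 from the start, and the stretch below ends 8 bases before the start. Ptx3, a gene of the pathway list described further on, held TAATTA at -97, while Gfpt2, whose signal differed between the mutants as that of Ptx3 did, and Adamts9 held neither TAATTA nor TAATTG. The capitals mark the GC box in Itih5 and TAATTA in the others. Itih5 is the member with the highest mutant to wild-type ratio on its brightest probe set, and Hapln1 and Ptx3 are the genes searched that held TAATTA. A match says only that the letters are there.

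Itih5, chr2:10153293-10153535, plus strand: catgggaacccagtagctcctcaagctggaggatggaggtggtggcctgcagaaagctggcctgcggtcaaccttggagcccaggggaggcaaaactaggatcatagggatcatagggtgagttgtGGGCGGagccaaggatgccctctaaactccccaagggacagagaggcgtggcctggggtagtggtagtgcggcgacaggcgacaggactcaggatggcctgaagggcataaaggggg
Hapln1, chr13:89540619-89540648, plus strand: gcagttaggctgTAATTAgaggatctggga
Ptx3, chr3:66219778-66219807, plus strand: ctgactcgcctcTAATTAatctgcctgcag

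Has2 was lowest in the wild-type mandibular branch and highest in the KO maxillary branch. On its brighter probe set (1449169_at) the 3 wild-type mandibular arrays read 109.2, 109 and 108.1 in deposited signal, a linear intensity that the authors had scaled to a common array mean. The Dlx5/6 mutant mandibular arrays read 254.1, 274.7 and 276.1, all above the wild-type mandibular arrays. Wild-type maxillary set 1 read 202.2, 218.9 and 215.8, so the mutant mandibular arrays also lay above the wild-type maxillary arrays of the same array set. Set 2 read 244.5, 208.2 and 269.9, and the KO arrays 338.7, 363.6 and 333.6, all above every other group. Sets 1 and 2 overlapped, as did set 2 and the Dlx5/6 mutants. Here and below, groups are said to overlap or not by their values after quantile normalization, which shifts the deposited signals a little.

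In group means Has2 was 268.3 ± 12.3 (SD, n = 3) in the Dlx5/6 mutants and 108.8 ± 0.604 in their wild type, a ratio of 2.47. The KO mean was 345.3 ± 16.1 and that of set 2 was 240.9 ± 31.1, a ratio of 1.43. On the log2(value + 32) scale used for all differences, which understates the change of dim genes, the differences were 1.10 ± 0.0913 (± SE of the limma model throughout) and 0.48 ± 0.0913. The Dlx5/6 difference exceeded the KO difference by 0.62 ± 0.129 on this probe set. That excess was 0.42 ± 0.163 on the other Has2 probe set, 1418678_at, and 0.52 ± 0.118 in the mean over its probe sets. On the brighter one it was 0.45 with set 1 as the KO control, 0.38 with a larger added constant and 0.73 with 8 added. Mandibular minus maxillary wild type (set 1) was -0.79 ± 0.0913, a description too, since the rule drew on the same wild-type mandibular arrays.

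The second Has2 probe set (1418678_at) also had the wild-type mandibular group lowest and the KO group highest. It read 79.09, 89.65 and 59.32 in wild-type mandibular arrays and 186.2, 204.3 and 204.3 in Dlx5/6 mutants, a log2 difference of 1.11 ± 0.115. Set 1 read 193.4, 187.9 and 200.7, which overlapped with the mutants, so the position of the Dlx5/6 mutants above set 1 held on only 1 of the 2 probe sets. Set 2 read 196.7, 153 and 201.2 and the KO arrays 281, 318.3 and 338.1, without overlap and with a log2 difference of 0.69 ± 0.115.

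Itih5 encodes a heavy chain protein of the inter-alpha-trypsin inhibitor family, and its groups stood in nearly the order of Has2. On the brightest probe set (1429159_at) the wild-type mandibular arrays read 84.19, 79.46 and 42.72 and the Dlx5/6 mutant arrays 280.1, 266.8 and 253.1. Set 1 read 180, 187.2 and 206.9, set 2 read 172.7, 187.5 and 223.2, and the KO arrays read 366.5, 334.1 and 442. The wild-type maxillary sets overlapped with each other. Every other pair of neighbouring groups was separate, with wild-type mandibular lowest, then wild-type maxillary, then Dlx5/6 mutant, then KO.

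The Itih5 mean was 266.6 ± 13.5 in the Dlx5/6 mutants against 68.8 ± 22.7, a ratio of 3.88 and a log2 difference of 1.59 ± 0.138. In the KO group it was 380.9 ± 55.3 against 194.5 ± 26.0 in set 2, a ratio of 1.96 and a log2 difference of 0.87 ± 0.138. The Dlx5/6 difference exceeded the KO difference by 0.72 ± 0.195 on this probe set. That excess was 0.36 ± 0.277 on 1436755_at, -0.24 ± 0.349 on 1441946_at, 0.28 ± 0.214 in the mean over the 3 probe sets, and 0.34 on the brightest with a larger added constant. The wild-type mandibular branch lay below set 1 by -1.15 ± 0.138, and the Dlx5/6 mutants lay above set 1 by 0.43 ± 0.138.

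The dimmer Itih5 probe sets separated the groups in part. On 1436755_at no wild-type mandibular array passed the 40th percentile of its array, with signals of 14.67, 4.465 and 5.13, and the Dlx5/6 mutants read 48.74, 45.74 and 33.45 (log2 difference 0.90 ± 0.196). There the KO arrays read 28.12, 69.77 and 60.66, above set 2 as deposited (26.58, 21.12 and 22.49) but overlapping with it after normalization. On 1441946_at the Dlx5/6 mutants (32.48, 26.93 and 34.53) overlapped with the wild type (30.06, 1.861 and 11.57). The KO arrays (32.35, 23.63 and 87.76) lay above set 2 (17.01, 3.598 and 17.61), with 1 array far above its group mates. At these signals the direction was the same on all 3 Itih5 probe sets, and the separation was not.

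**Figure D1:**
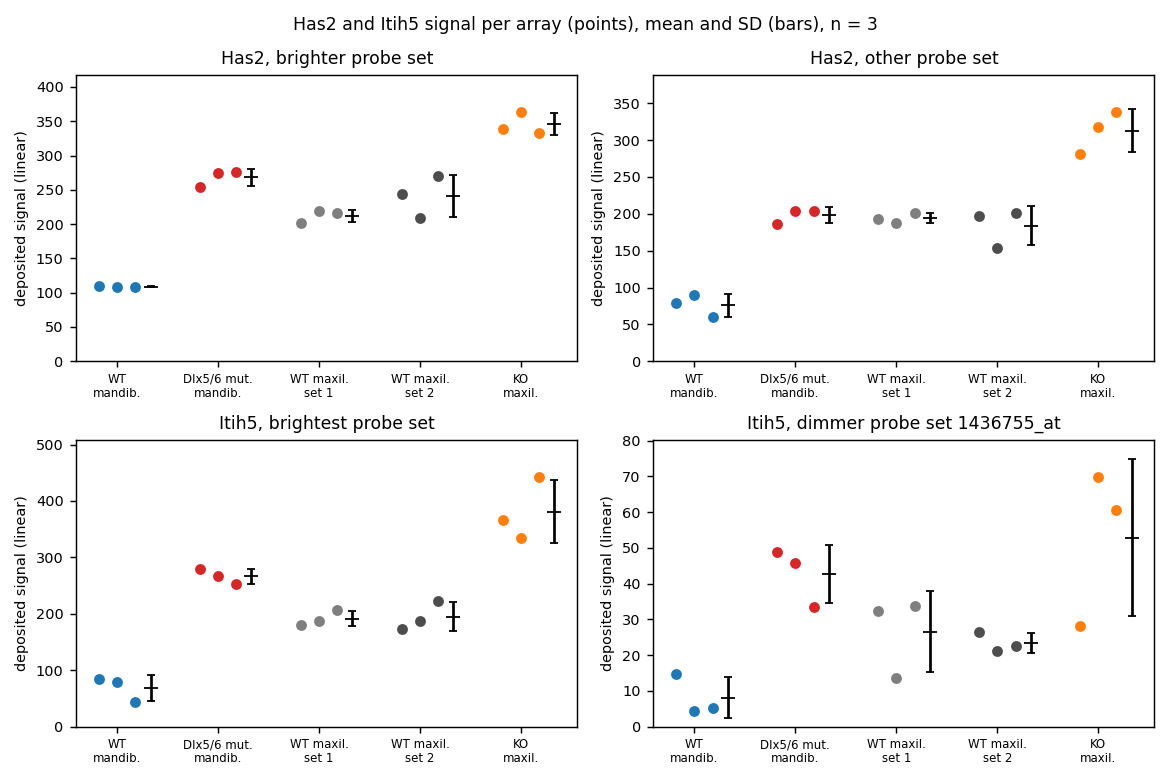
Deposited signal (linear, y axis from 0) of both Has2 probe sets and 2 of the 3 Itih5 probe sets in the 5 groups; each point is 1 array, and the bar beside it is the group mean with its SD (n = 3). Wild-type mandibular arrays lie lowest in both Has2 panels and on the brightest Itih5 probe set, and the KO arrays of both Has2 panels (333.6 to 363.6 and 281 to 338.1) lie above all other arrays.

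The summed signal of macrophage markers was likewise lowest in the wild-type mandibular and highest in the KO arrays, and its part in the Has2 and Itih5 values was not tested. All 10 listed markers passed the filter and none was at 0, the dimmest being Aif1 at 2.9 to 27.9. Their summed signal ran from 356.3 to 367 in the wild-type mandibular, 542.7 to 569.4 in the Dlx5/6 mutant, 546 to 568 in set 1, 512.7 to 550.9 in set 2 and 749.4 to 827.2 in the KO arrays. Single markers followed this in part. The group mean was lowest in the wild-type mandibular arrays for 8 of the 10 (not Aif1 and Adgre1) and highest in the KO arrays for 7 (not Aif1, Cd68 and C1qa). Of the 10, limma called Csf1r and C1qa lower in wild-type mandibular than in set 1, Csf1r higher in Dlx5/6 mutants, and Csf1r and Mrc1 higher in KO than in set 2. Csf1r, the growth factor receptor of macrophages, read 106.7 to 123.3 in wild-type mandibular and 259.2 to 302.6 in KO arrays. In such bulk RNA, fewer cells of a type and less RNA per cell cannot be told apart.

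Other cell type markers moved in part. Sensory neuron and glia markers (11 of 12 measured) summed to 570.2 to 620.5 in wild-type mandibular, 598.4 to 675.6 in Dlx5/6 mutant, 3113 to 3372 in set 1, 1349 to 1435 in set 2 and 1067 to 1107 in KO arrays. All 11 were called lower in wild-type mandibular than in set 1. Of these, Sst and Neurod1 were called higher in the Dlx5/6 mutants, and Nefl, Nefm and Neurog1 lower in KO arrays than in set 2. Endothelial markers (8 of 8) summed to 1243 to 1450 in KO arrays and 862.8 to 1144 in the other groups, and 1 of them, Emcn, was called higher in KO than in set 2. Arch mesoderm and muscle markers (7 of 8 measured) summed to 325 to 339.6 in wild-type mandibular and 189.1 to 238.1 in Dlx5/6 mutant arrays, and of these Myf5 was called lower in the mutants. Epithelial markers (8 of 8) summed to 2177 to 2248 in set 2 and 2494 to 2572 in KO arrays, with none called. Of the arch mesenchyme markers, Prrx2 and Twist1 were called higher and Msx1 lower in the Dlx5/6 mutants, and Tfap2a higher and Prrx1 and Dlx2 lower in the KO arrays. The part of these cells in the members' values was not tested.

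The genes most like Has2 over the 15 arrays, by Pearson's r of log2 signal, were Itih5 (r = 0.96), the selenium carrier Selenop (0.95), the homeodomain gene Meis2 (0.94), Limch1 (0.94) and Cped1 (0.93). For Itih5 they were Has2 (0.96), Csf1r (0.95), the cyclin gene Ccnd2 (0.94), Cped1 (0.92) and the retinoic acid hydroxylase gene Cyp26a1 (0.92). These arrays share their groups, so r mainly follows the group means. Around the group means Has2 and Itih5 correlated at 0.11, Itih5 and Csf1r at 0.62, and the pair of Has2 probe sets at 0.55. Itih5 correlated there with Ccnd2 at 0.52, with Cped1 at 0.15 and with Cyp26a1 at -0.36. Has2 correlated there with Selenop at 0.01, with Meis2 at -0.20, with Limch1 at 0.15 and with Cped1 at 0.09. Cyp26a1 had group means of 68.2 in wild-type mandibular, 278.3 in Dlx5/6 mutant, 157.1 in set 1, 149.8 in set 2 and 265.1 in KO arrays. Selenop had 718.9, 1058, 1027, 1069 and 1397 in the same order.

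Vcan, which encodes versican, was called lower in the wild-type mandibular than in the wild-type maxillary branch on its 2 brightest probe sets. On 1427256_at the wild-type mandibular arrays read 1557, 1487 and 1495 and set 1 read 2057, 1964 and 2077, with no overlap. The log2 difference was -0.45 ± 0.0571 (limma, adjusted p = 1.33e-05), and it was -0.33 ± 0.0571 against set 2 (limma, adjusted p = 0.000418). On 1421694_a_at the arrays read 871.5, 897.8 and 776.5 against 1246, 1118 and 1055, a difference of -0.42 ± 0.0707 (limma, adjusted p = 0.000544; against set 2 adjusted p = 0.0293). On 1427257_at the groups did not overlap either, but the difference of -0.29 ± 0.0880 was not called (limma, adjusted p = 0.0909). The other 3 Vcan probe sets past the filter were dim, with group means of 8.23 to 37.7, and the wild-type mandibular arrays overlapped with set 1 on each. Against set 2 they lay wholly below on 1433044_at (-0.25 ± 0.144), which was not called (limma, adjusted p = 0.323). Averaged over all its probe sets past the filter, Vcan gave -0.14 and was not called (limma, adjusted p = 0.341).

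In the mutants the 3 bright Vcan probe sets all read above the wild type without overlap. On 1427256_at the Dlx5/6 mutant arrays read 1872, 1919 and 1661, a log2 difference of 0.25 ± 0.0571 from the wild type, and lay below set 1 by -0.21 ± 0.0571. The KO arrays read 2246, 2178 and 2137 and set 2 read 1999, 1935 and 1894, a log2 difference of 0.18 ± 0.0571. Against set 1 the KO difference was 0.06 ± 0.0571, and the groups overlapped after normalization though not as deposited. On 1421694_a_at the mutant differences were 0.33 ± 0.0707 and 0.21 ± 0.0707, and on 1427257_at they were 0.27 ± 0.0880 and 0.43 ± 0.0880.

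Hapln1, the gene of cartilage link protein, is the neighbour of Vcan, with 0 protein-coding genes between their starts in the RefSeq table. Its brightest probe set (1438020_at) read 131.8, 182.5 and 147.8 in wild-type mandibular, 119.7, 107.6 and 107.8 in Dlx5/6 mutant, and 159.1, 139.6 and 122.1 in set 1 arrays. Set 2 read 184, 175 and 196.7, and the KO arrays 222.2, 203.2 and 257.2. The Dlx5/6 mutants lay below their wild type without overlap (-0.34 ± 0.116), whereas the KO arrays lay above set 2 without overlap (0.25 ± 0.116). The summed signal of chondrocyte markers (5 of 6 past the filter) moved the same way in the mutant comparisons. It was 3604 to 3965 in wild-type mandibular and 3182 to 3234 in Dlx5/6 mutant arrays, and 2680 to 2877 in set 2 and 3216 to 3280 in KO arrays. In set 1 it was 2337 to 2488, below the wild-type mandibular arrays, whereas Hapln1 overlapped between those groups. Of these markers only Col9a1, a cartilage collagen gene, was called, lower in the Dlx5/6 mutants and higher in the KO arrays. The dim marker Acan went the other way in the KO arrays, with a mean of 5.04 against 20.5 in set 2. The part of such cells in the Hapln1 values was not tested. Hapln1 was thus the 1 member whose brightest probe set separated the mutants from their wild types in opposite directions.

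On its other probe sets the lower Dlx5/6 signal was seen again in part, and the KO groups were not separate. On 1426294_at the wild-type mandibular arrays read 77.85, 74.22 and 85.2 and the Dlx5/6 mutants 53.22, 63.77 and 61.98, again without overlap (-0.25 ± 0.149). The groups were separate on 1426295_at too (-0.23 ± 0.150) and overlapped on 1421633_a_at (-0.27 ± 0.216). The KO groups overlapped on all 3 of these, with differences of 0.07, -0.21 and -0.16, and the KO difference averaged over the 4 probe sets was -0.01. Between the wild-type branches Hapln1 was not called on any probe set. The difference of 0.11 on 1438020_at had a 95% confidence interval of -0.14 to 0.35 (limma, adjusted p = 0.811).

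**Figure D2:**
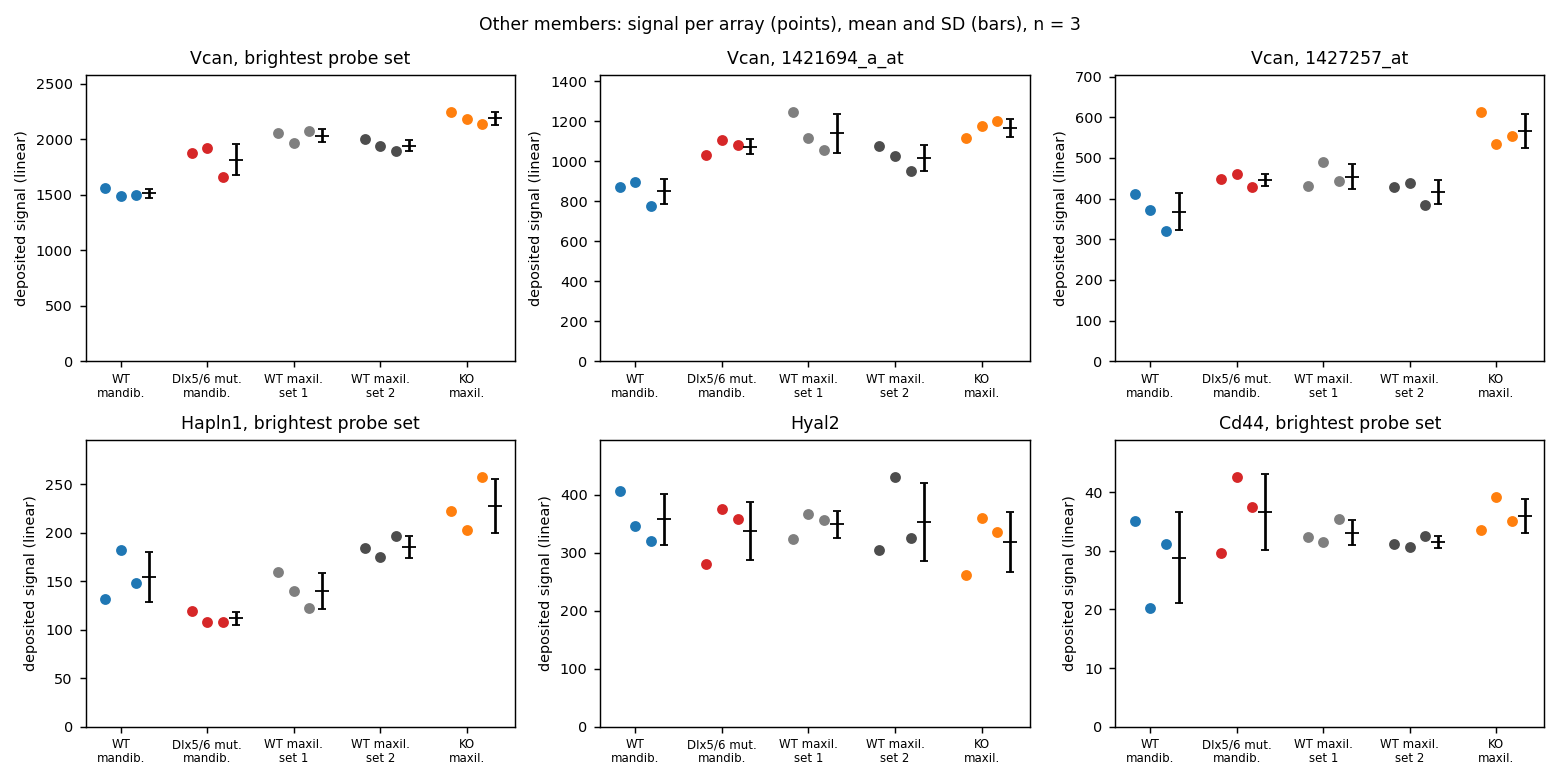
Deposited signal (linear, y axis from 0) of the 3 bright Vcan probe sets, the brightest Hapln1 and Cd44 probe sets and the Hyal2 probe set in the 5 groups; points are arrays and bars the group mean with SD (n = 3). Vcan is lowest in wild-type mandibular arrays on its 2 brightest probe sets, Hapln1 is lowest in Dlx5/6 mutants (107.6 to 119.7), and the compared groups of Hyal2 and Cd44 overlap after normalization.

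Cd44, the receptor gene, was dim, and its compared groups overlapped after normalization on its brightest probe set (1434376_at). It read 35.12, 20.2 and 31.18 in wild-type mandibular, 29.68, 42.59 and 37.5 in Dlx5/6 mutant and 32.43, 31.46 and 35.53 in set 1 arrays. Set 2 read 31.21, 30.67 and 32.59 and the KO arrays 33.52, 39.17 and 35.08, above set 2 as deposited but not after normalization. The wild-type difference between branches was -0.05, with a 95% confidence interval of -0.34 to 0.24 (limma, adjusted p = 0.938), and the mutant differences were 0.16 ± 0.140 and 0.04 ± 0.140. The other 2 probe sets past the filter were not called between the wild-type branches either (limma, adjusted p = 0.771 and 0.807).

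Hyal2, which encodes a hyaluronidase anchored to the cell surface, read 406.6, 346.9 and 319.8 in wild-type mandibular, 281.1, 375 and 357.6 in Dlx5/6 mutant and 323.4, 367 and 356.9 in set 1 arrays. Set 2 read 305, 430.6 and 325.8 and the KO arrays 261.2, 359.7 and 336.1. All compared groups overlapped. The wild-type difference between branches was 0.02, with a 95% confidence interval of -0.24 to 0.29 (limma, adjusted p = 0.972), and the mutant differences were -0.06 ± 0.128 and -0.13 ± 0.128.

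Has3, the synthase not kept, had no array above the 40th percentile in any group. Its signal was 1.424, 1.068 and 7.327 in wild-type mandibular, 8.909, 6.746 and 14.29 in Dlx5/6 mutant, 9.841, 16.72 and 4.854 in set 1, 1.591, 0.8222 and 0.8867 in set 2, and 1.107, 2.979 and 9.439 in KO arrays. No order was read from these values. Has1, the third synthase gene, did not pass the filter and reached 28.0 at most.

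**Figure D3:**
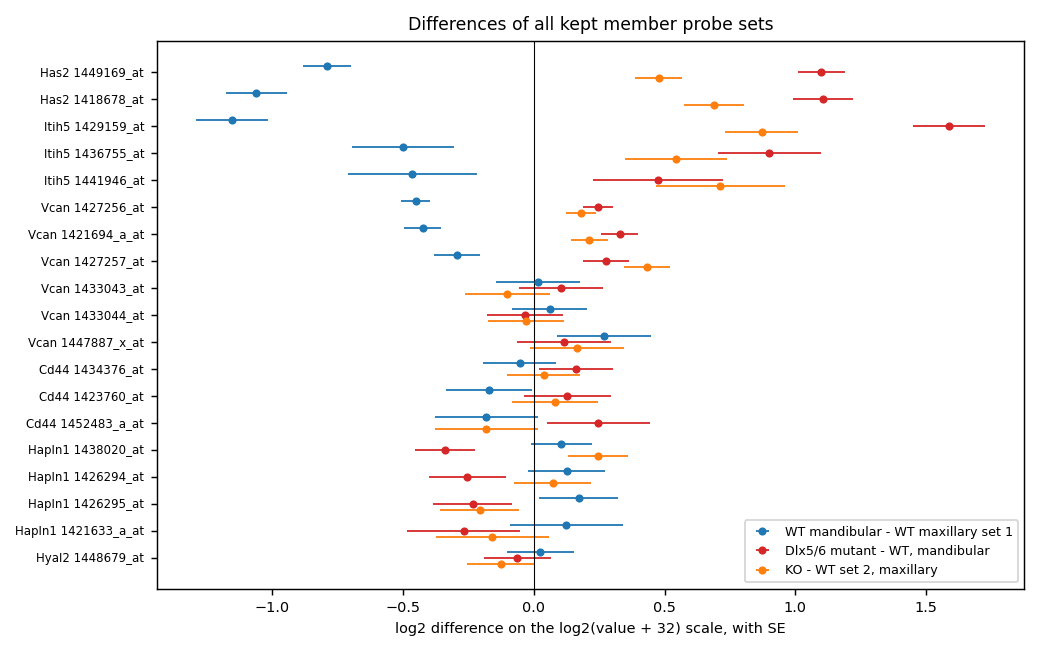
Log2 differences (x axis, log2(value + 32) scale) of the 19 member probe sets past the filter in 3 comparisons; points are differences and lines their SE. Has2 and Itih5 lie left of 0 between the wild-type branches and right of 0 in both mutant comparisons, whereas the Dlx5/6 points of Hapln1 lie left of 0 and the points of Hyal2 lie at 0.02, -0.06 and -0.13.

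Counted over the 19 member probe sets, the wild-type mandibular arrays lay wholly below set 1 on 6 and wholly above on 0, where 8.37% and 9.06% of the 31643 probe sets past the filter did so. Of the 14 that could be tested there (all but those of Has2 and Itih5), limma called 2, both of Vcan and both lower, beside a background of 2.64% called, 1.51% lower and 1.13% higher. Against set 2, again 2 of 14 were called, both lower, beside 5.08% lower and 5.40% higher. The Dlx5/6 mutants lay wholly above their wild type on 7 and wholly below on 3, beside 9.04% and 9.76%. The KO arrays lay wholly above set 2 on 8 and below on 0, beside 7.12% and 7.55%. The 6 that lay wholly below set 1 were those of Has2, the brightest of Itih5 and the bright ones of Vcan. Since the rule used the mutant comparisons and with them the wild-type mandibular arrays, nothing is read from these counts of separate groups.

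Against set 1 the KO arrays lay wholly above on 6 and below on 1 of the 19, beside 13.0% and 14.0%. The Dlx5/6 mutants lay wholly above set 1 on 4 and below on 1, beside 6.83% and 6.91%. By gene, on the brightest probe set, 3 of 6 genes lay wholly above in the Dlx5/6 and 4 of 6 in the KO comparison. Of all probe sets, 9.04% and 7.12% did so. Hapln1 was the 1 that lay wholly below in the former, beside 9.76%. It also counts among those above in the KO comparison, where its other probe sets overlapped. The counts in this paragraph and the medians below include Has2 and Itih5, which the rule chose, so nothing is read from them. The median log2 difference of the 6 genes was -0.25 between the wild-type branches, 0.20 in Dlx5/6 mutants and 0.21 in KO arrays, where the medians of all genes were 0.0041, -0.0078 and -0.0016. The Dlx5/6 and wild-type branch comparisons share the wild-type mandibular arrays, so their opposite signs are not independent.

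Other genes of the pathway were followed with a list of 56, of which 53 had a probe set and 45 passed the filter. Between the wild-type branches (set 1) limma called 1 higher and 5 lower on the mandibular side, beside 1.13% and 1.51% of all probe sets. The median difference was -0.13 (0.0041 for all genes). In the Dlx5/6 mutants it called 4 higher and 0 lower, beside 1.41% and 1.25% of all probe sets, with a median of 0.09. In the KO arrays it called 0 of 45, beside 0.465% higher and 0.449% lower, and 3 had an unadjusted p under 0.05. The difference of the mutant effects was called for 2, both higher in the Dlx5/6 mutants, beside 0.528% higher and 0.566% lower. These shares run over all probe sets past the filter, dim ones included, whereas each pathway gene was represented by its brightest. Shares over genes represented in that way are not given, so the counts and shares are not of like units.

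Among the genes of sugar supply and synthesis, 7 of 8 passed the filter. Gfpt2, an enzyme of the first step toward UDP-N-acetylglucosamine, read 104.5, 93.65 and 121.3 in wild-type mandibular, 158.2, 203.2 and 183.4 in Dlx5/6 mutant, and 190.8, 182.9 and 151.6 in set 1 arrays. Its wild-type mandibular arrays lay below both other groups. It rose in the Dlx5/6 mutants by 0.64 ± 0.125 (limma, adjusted p = 0.00445), and was lower in the wild-type mandibular than maxillary branch by -0.57 ± 0.125 (limma, adjusted p = 0.00896). Set 2 read 149.1, 166 and 176.9 and the KO arrays 105.4, 155.4 and 120.4, which overlapped, and the KO difference of -0.33 ± 0.125 was not called (limma, adjusted p = 0.302). The mutant effects differed by 0.97 ± 0.177 (limma, adjusted p = 0.00347), so Gfpt2 differed between the mutants where Has2 was higher in both.

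Ugdh, which makes UDP-glucuronic acid, was the 1 pathway gene called higher in the wild-type mandibular branch than in set 1. It read 966.2, 911.3 and 950.2 there and 736.7, 736.1 and 812.5 in set 1 (0.30 ± 0.0686; limma, adjusted p = 0.0151). The Dlx5/6 mutants read 785.8, 874.6 and 773.1, below the wild type but not called (-0.21 ± 0.0686; limma, adjusted p = 0.119). Ugp2, Gfpt1, Gnpnat1, Pgm3 and Uap1 were not called in these comparisons. The Ugdh call was lost without single arrays in 4 of 6 fits (limma, adjusted p = 0.0115 to 0.0782), namely without wild-type mandibular replicate 1 or 3 and without set 1 replicate 1 or 2.

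Of the link protein and hyaluronan-binding group (8 of 8 past the filter), Ptx3 alone was called within the array sets. Ptx3 is a pentraxin that holds heavy chain hyaluronan complexes together in matrix. Wild-type mandibular arrays read 136.4, 190.2 and 168.9, Dlx5/6 mutants 342.9, 311.8 and 308, and set 1 412.9, 471.3 and 402.3, without overlap among the 3 groups. It rose in the Dlx5/6 mutants by 0.86 ± 0.101 (limma, adjusted p = 8.08e-06) and was lower in the wild-type mandibular than maxillary branch by -1.23 ± 0.101 (limma, adjusted p = 1.65e-08). Set 2 read 351.1, 332.8 and 331.8 and the KO arrays 380.5, 327.5 and 301.3, a difference of -0.00 ± 0.101. The mutant effects differed by 0.86 ± 0.144 (limma, adjusted p = 0.00132). Its other probe set, 1456903_at, gave 0.43 in the Dlx5/6 mutants and -0.53 between the branches and was called in neither (limma, adjusted p = 0.302 and 0.175).

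The other heavy chain genes of the list and the bikunin gene were dim. Itih1, Itih2, Itih3, Itih4 and the bikunin gene Ambp did not pass the filter, with highest signals of 9.26, 24.4, 9.38, 16.4 and 7.78. Tnfaip6, the enzyme that moves heavy chains onto hyaluronan, passed, with group means of 420.4 (wild-type mandibular) to 648.2 (KO). It was not called between the wild-type mandibular branch and set 1 or in either mutant comparison. In comparisons across the array sets it was lower in the wild-type mandibular branch than in set 2 by -0.53 (limma, adjusted p = 0.00531) and higher in KO arrays than in set 1 by 0.39 (limma, adjusted p = 0.0391).

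Versican proteases and partners held the other called genes, with 10 of 10 past the filter. Adamts9, a protease that cuts versican, read 143.5, 123 and 106.1 in wild-type mandibular, 197.1, 206.6 and 199.5 in Dlx5/6 mutant and 175.2, 177.6 and 178.1 in set 1 arrays. It rose in the mutants by 0.60 ± 0.1004 (limma, adjusted p = 0.000787). Between the wild-type branches it was lower by -0.43 ± 0.1004 (limma, adjusted p = 0.0164), a call kept in 1 of 6 fits without single arrays (limma, adjusted p = 0.00515 to 0.128), the one without wild-type mandibular replicate 1. Its other 2 probe sets were not called.

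Adamts15, a protease of the same family, read 26.38, 27.79 and 35.37 in wild-type mandibular, 60.76, 62.27 and 74.34 in Dlx5/6 mutant and 63.67, 96.4 and 63.11 in set 1 arrays. The wild-type mandibular arrays lay below both other groups. It rose in the mutants by 0.65 ± 0.137 (limma, adjusted p = 0.00828; 0.0543 without mutant replicate 3), and was lower between the branches by -0.73 ± 0.137 (limma, adjusted p = 0.0021). Fbln2, a fibulin that binds versican, was lower in the wild-type mandibular branch than in set 1 (203.9, 211.4 and 228.8 against 332.1, 372.6 and 339.1; -0.63 ± 0.106; limma, adjusted p = 0.000695), and was not called against set 2 (limma, adjusted p = 0.0942) or on its other probe set. In the KO comparison Adamts9 and Adamts15 had differences of 0.12 and 0.16 and were not called, and the difference between their mutant effects was not called either (limma, adjusted p = 0.144 and 0.35).

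**Figure D4:**
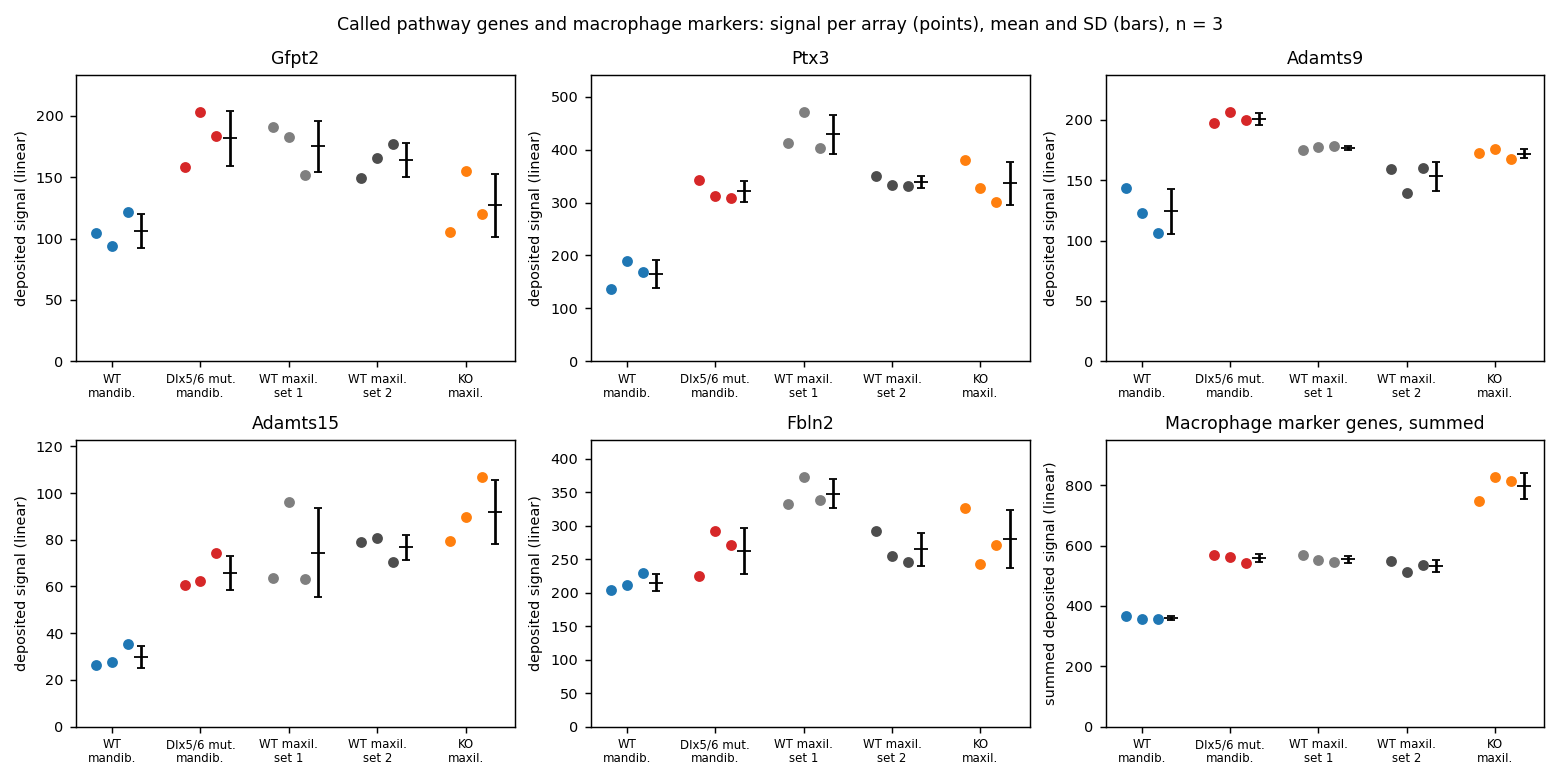
Deposited signal (linear, y axis from 0) of 5 called pathway genes, and the summed signal of the 10 macrophage markers, in the 5 groups; points are arrays and bars the mean with SD (n = 3). Ptx3, Adamts15 and the macrophage sum are lowest in wild-type mandibular arrays, and the macrophage sum is highest in KO arrays (749.4 to 827.2).

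The other parts of the list held no call between the wild-type mandibular branch and set 1 or in either mutant comparison. These were 9 receptors and linkers such as Hmmr, Lyve1, Stab2 and the ezrin family, the turnover genes Cemip, Cemip2, Hexa and Gusb, and 7 genes of chondroitin sulfate synthesis. The Dlx5/6 mutant arrays compared with set 1 gave 0 calls among the 45 pathway genes (limma), beside 0.594% of all probe sets, and 4 had an unadjusted p under 0.05. Against set 1 the KO arrays gave 2 higher (Cemip2 and Tnfaip6) and 2 lower (Ugdh and Acan), beside 4.90% and 5.57%, a comparison that crosses the array sets. Also across the sets, the wild-type mandibular branch compared with set 2 gave 2 higher (Ugdh and Tnc) and 5 lower (Gfpt2, Cemip2, Tnfaip6, Ptx3 and Adamts15). In that comparison 5.40% of all probe sets were called higher and 5.08% lower. There Tnc, a matrix glycoprotein gene, differed by 0.57 ± 0.162 (limma, adjusted p = 0.025) and Cemip2, a hyaluronidase of the cell surface, by -0.45 ± 0.0819 (limma, adjusted p = 0.000696). Between the wild-type maxillary groups themselves, set 2 was higher for Cemip2 and lower for Fbln2 and for Fn1, the fibronectin gene (-0.30 ± 0.0662; limma, adjusted p = 0.00473), beside 4.11% higher and 4.38% lower of all probe sets.

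**Figure D5:**
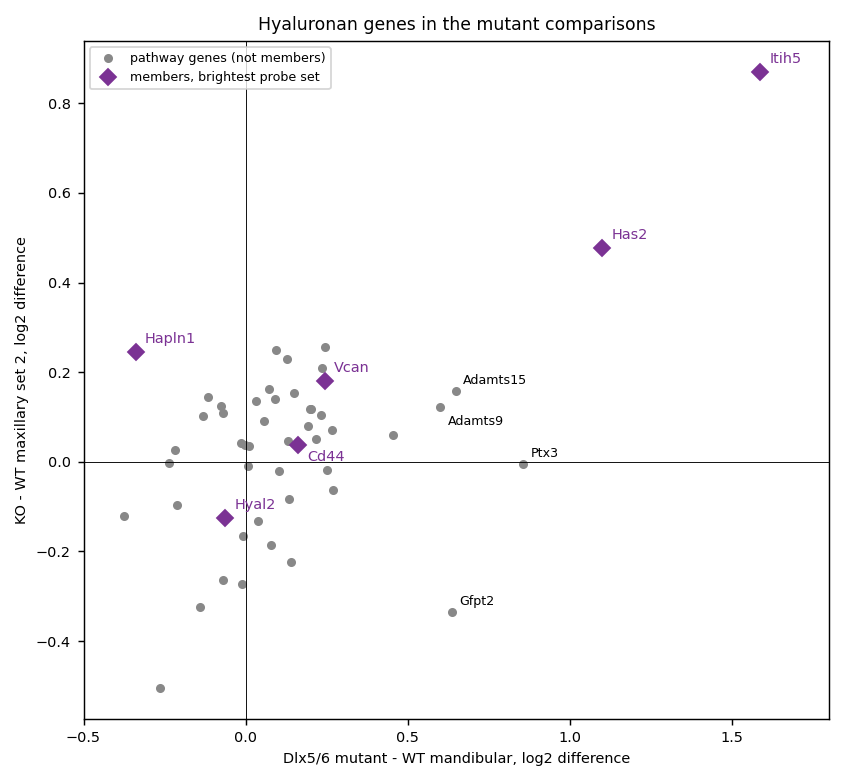
Log2 difference of the Dlx5/6 mutants from their wild type (x axis) against that of the KO arrays from set 2 (y axis), for the 45 pathway genes past the filter (grey) and the 6 members (purple, brightest probe set). Itih5 (1.59, 0.87) and Has2 (1.10, 0.48) lie at the upper right, and Ptx3 (0.86) and Gfpt2 (0.64) lie to the right with KO differences of -0.00 and -0.33.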

How the data were processed

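The deposited table held a linear intensity for each probe set of an Affymetrix mouse array, and all columns were mapped to a sample. How the probes were summarized and corrected for background is not given in the sources used here. Without the lowest and highest 2%, the mean deposited intensity was 150.001 on every array, so the authors had scaled them. Values were taken as log2(value + 32) and quantile normalized, since array medians ran from 5.87 to 6.03. Of 45101 probe sets, 64 were controls, and 31643 passed the filter (brighter than the 40th percentile on 3 or more arrays). The probe table gave 1 symbol for 34958, several for 932, and did not list 9211. Each of 13934 genes was represented by its brightest probe set past the filter, less specific ones last.

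Comparisons were contrasts in 1 limma model (3.58.1, R 4.3.3) of 5 group means with 10 residual degrees of freedom and an intensity trend. Two-sided p-values were adjusted after Benjamini-Hochberg across the 31643 probe sets, with calls at an adjusted p under 0.05. The procedure was tested on simulated data. The number of arrays limits the precision, and the median SE was 0.148. Groups overlap or not by normalized values.

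The members and gene lists were chosen with earlier results of these data known. Named were all members, the called pathway genes (up to 4 a direction and comparison by the rule, here all of them), and the 5 genes most alike to Has2 and to Itih5. No test is given for Has2 and Itih5, although one was planned between the wild-type branches. Arrays with the same replicate number had residuals correlated at -0.096 to 0.085 over 30 pairs, and the numbers were therefore not treated as pairing. Alternatives changed the scaling, added constant, filter, trend, probe set rule, groups fitted, wild-type control, replicate block and single arrays. Added after seeing the data were the array sets fitted alone and all alternatives for the difference of the mutant effects.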

Additional observations from a re-analysis of the deposited data

Results flagged for a closer look

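The Gfpt2 difference between the mutant effects was 0.97 on the log2 scale, with the Dlx5/6 mutants higher than their wild type and the KO arrays below set 2 in the mean. Ptx3 had a difference of 0.86, with the Dlx5/6 mutants higher and the KO arrays near set 2. Both were called by limma. Hapln1 on 1438020_at was lower in all 3 Dlx5/6 mutant arrays than in any of their wild type (-0.34) and higher in all 3 KO arrays than in any of set 2 (0.25), and the difference between these effects was not tested. On its other probe sets the KO arrays and set 2 overlapped, and the KO difference averaged over its probe sets was -0.01. No group held enough arrays for a check of single outlying arrays.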

How the results depend on the processing

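Of 1204 values recomputed under alternatives, 1123 stayed on their side of the threshold and within the spread between arrays or 1.5 times of a count, 81 did not, and 0 reversed a call. The sign changed for 23 of 908 log2 differences, none of them called or of Has2 or Itih5, such as Hyal2 in the Dlx5/6 mutants (-0.06, and 0.05 without mutant replicate 1), Cd44 between the wild-type branches (-0.05, and 0.04 without wild-type mandibular replicate 2) and Hapln1 between the branches (0.11, and -0.26 against set 2). Has2 in the Dlx5/6 mutants gave 1.25 with 8 added and 0.75 with the larger constant tried, and Itih5 gave 1.88 and 1.01. Itih5 in the KO arrays gave 0.66 with that constant, and its Dlx5/6 difference averaged over its probe sets was 0.99. Has2 in the KO arrays against set 1 gave 0.65. Without the intensity trend, limma called 452 probe sets in the Dlx5/6 and 172 in the KO comparison (841 and 289 with it), and 219 instead of 346 for the difference of the mutant effects. With set 2 as control, 3318 instead of 835 were called between the wild-type branches. With set 1 as control, the KO comparison had 3310 and the difference of effects 2246. These cross the array sets.

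Without single arrays the counts ran from 607 to 691 between the wild-type branches, 499 to 653 in Dlx5/6 mutants, 175 to 222 in KO arrays and 261 to 309 for the difference. Without Dlx5/6 replicate 2 or 3 there were 499 or 520, without KO replicate 2 there were 187, and without set 2 replicate 1 or 3 there were 175 or 179. The Has2 difference ran from 1.08 to 1.13 and 0.40 to 0.55, and that of Itih5 from 1.38 to 1.70 and 0.77 to 0.95, in Dlx5/6 and KO arrays. Gfpt2 between the wild-type branches lost its call without wild-type mandibular replicate 2 (limma, adjusted p = 0.0669) or set 1 replicate 1 (0.0628). When array medians were equalized instead, the share of calls that were higher was 56.5% instead of 42.6% between the branches and 32.7% instead of 50.9% in KO arrays. With the replicate number as a block, 787, 779, 260 and 333 were called in these comparisons. No call of Ugdh, Gfpt2, Ptx3, Adamts9, Adamts15 or Fbln2 changed, nor that of the brightest Vcan probe set between the wild-type branches. Calls of the other named genes and probe sets were not recomputed one by one under the alternatives. Fitted alone within its array set, Has2 gave 1.11 and 0.47 and Itih5 1.60 and 0.86. The causes of these shifts were not tested. The 3 arrays a group, signals near the floor for Has3, Cd44 and the dimmer Itih5 and Vcan probe sets, and unnamed transcripts per probe set limit what can be read.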
